A study of Homo sapiens with 12 samples.

Results

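SEL201 added to OTX015 was examined in A375 cells, an established human melanoma line with an activating BRAF mutation, by comparing 3 libraries of cells given both agents (COMBO) with 3 libraries of cells given OTX015 only. These are 6 of the 12 RNA-seq libraries of the series. In each group the labels number the libraries 1 to 3, and each COMBO library was compared with the OTX015 library of the same number. All cells were treated for 72 h, with OTX015 at 50 nM in both of these groups and SEL201 at 2.5 µM in COMBO. The other 6 libraries are UNTREATED cells, whose treatment label is DMSO, the drug solvent, and cells given SEL201 only at the same dose. They show what SEL201 changed without OTX015 and are on neither side of the comparison. They did enter the same fit, which estimated the spread and the effect of library number from all 12 libraries. All 4 groups are the same cell line, and the series asks how the 2 agents act together in BRAF-mutated melanoma cells. Since the labels do not tell whether replicates are separate cultures, the p-values describe only a spread between libraries. In the main fit this is the spread left once group and library number are taken into account. In the fit without the pairing it is the spread of libraries within a group.

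SEL201 is an inhibitor of MNK1 and MNK2, kinases that the ERK and p38 pathways activate and that phosphorylate eIF4E, the protein that binds the cap of messenger RNA. Phosphorylated eIF4E favours the translation of a subset of transcripts, among them transcripts of invasion and inflammation, and is prominent in melanoma with active RAF signalling. OTX015 inhibits the BET proteins, which bind acetylated histones and recruit the elongation factor P-TEFb to promoters and enhancers. RNA levels do not show translation, and neither eIF4E phosphorylation nor protein was measured here.

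The table holds 8579 genes with mean counts of 78.67 to 9158.7 per library, and genes outside these levels were not analysed here. Totals over these genes were 18917153 to 21834086 counts in OTX015 and 15146071 to 23247709 in COMBO; they are not the sequencing depth. Levels are given as CPM, counts scaled to a common library total after TMM normalization, so a change shared by most genes would be removed. On the first principal component (72.8% of the variance) OTX015 lay at 11.38 to 13.63 and COMBO at 24.87 to 27.22, SEL201 at -8.844 to -7.126 and UNTREATED at -32.21 to -29.76. The second, with 8.8%, set the number 3 library of every group (-12.97 to -7.078) apart from the other 8 (1.775 to 7.843). Of 13 markers of this melanoma line 6 were measured, and their summed level was 266.5 to 284.9 CPM in OTX015 and 275.1 to 306.7 in COMBO. Of 18 markers of other cell types 6 were measured, at a sum of 185.8 to 235.5 CPM in OTX015 and 204.6 to 253.6 in COMBO. No gene was at 0 in any library.

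Adding SEL201 to OTX015 changed many genes by small amounts. In the edgeR fit with the library number as a block, 861 genes were higher in COMBO (10.0% of those tested) and 1047 were lower (12.2%), at an adjusted p under 0.05. The median log2 change of the higher genes was 0.208 and that of the lower genes -0.263, and over all genes it was -0.001. A change of at least 1.5-fold was reached by 30 of the higher and 140 of the lower genes, and a change of at least 2-fold by 2 and 18. In all 3 pairs 843 of the higher and 1020 of the lower genes moved in the called direction. Without the pairing by number the fit called 249 genes higher (2.9%) and 344 lower (4.01%), and all 593 of these were also called with it. Leaving out number 1 gave 521 higher and 661 lower genes, and leaving out the number 3 OTX015 library gave 572 higher genes.

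Among genes whose mean reached 5 CPM in COMBO or OTX015, the largest fall was in IL1RL1, which encodes the receptor of the cytokine interleukin-33. Its level in OTX015 libraries 1 to 3 was 27.7, 35.26 and 27.14 CPM, and in COMBO 6.462, 5.548 and 10.52. Every COMBO library was below every OTX015 library, and the level fell 4.17-fold (log2 change -2.06 with an SE of 0.15, edgeR adjusted p = 1.5e-11). Genes named for the largest rises and falls were required to show no overlap and 3 pairs in the same direction. Over all genes, 12.2% were higher and 12.8% lower in COMBO without overlap. In bulk RNA, fewer cells that express a gene and less RNA per cell cannot be told apart. MMP9, a gelatinase that degrades basement membrane collagen, went from 87.28, 75.53 and 143.5 CPM to 27.31, 30.7 and 52.79. The groups again did not overlap, and each number 3 library was the highest of its group, so that the 3 pairs gave a fall of 2.77-fold with a small error (log2 change -1.47 with an SE of 0.06, edgeR adjusted p = 2.3e-17).

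TGM2, the tissue transglutaminase that the series title names, a protein-crosslinking enzyme, was 222.3, 214.7 and 298.2 CPM in OTX015 and 114.2, 113.1 and 152.4 in COMBO. Its fall was nearly the same in every pair (log2 change -0.95, SE 0.04, edgeR adjusted p = 7.3e-18). TGM1, the other measured transglutaminase gene, was at 5.975 to 7.318 CPM in OTX015 and 6.333 to 11.18 in COMBO, and did not pass the test (log2 change 0.24, adjusted p = 0.29).

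The other genes named for the largest falls, under the same limit of level and without overlap between the groups, had log2 changes from -1.16 to -0.94. They were MLPH (-1.16), melanophilin, which tethers melanosomes to myosin; IL7R (-1.11), a subunit of the interleukin-7 receptor; ARHGDIB (-1.07); and ANKRD1 (-1.06), a target gene of the YAP coactivator. KCNJ12 (-1.06), an inward rectifier potassium channel, TESMIN (-1.01), the keratin gene KRT80 (-1.01) and LAD1 (-1.0), which encodes the basement membrane protein ladinin, followed. SH2D1B (-0.97), COL6A3 (-0.96), a collagen VI chain, and TMEM154 (-0.94) completed the group. IL7R, for example, was at 43.54, 50.95 and 57.27 CPM in OTX015 and at 21.93, 23.25 and 24.48 in COMBO. MLPH, TESMIN and ARHGDIB were low in COMBO, at 3.043 to 3.404, 2.404 to 3.242 and 5.271 to 6.219 CPM.

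The largest rise was in TAC1, the precursor gene of the neuropeptide substance P. It was at 39.68, 27.78 and 50.31 CPM in OTX015 and at 128.5, 108.8 and 151.9 in COMBO. The lowest COMBO library was above the highest OTX015 library, and the rise was 3.34-fold (log2 change 1.74 with an SE of 0.07, edgeR adjusted p = 5.8e-17). MAF, a bZIP transcription factor, was at 194, 185.8 and 205.8 CPM in OTX015 and at 338.6, 318.5 and 391.5 in COMBO. Its libraries did not overlap either (log2 change 0.84, SE 0.04, edgeR adjusted p = 4.1e-16).

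EFR3B (log2 change 1.03), a membrane anchor of the phosphatidylinositol 4-kinase PI4KA, was the only other named gene whose rise passed 2-fold. SOCS1 (0.80), a feedback inhibitor of JAK kinases, PXDN (0.77), a matrix peroxidase, and TEX14 (0.74) rose from low levels: SOCS1 from 5.382 to 6.702 CPM in OTX015 to 8.969 to 12.57 in COMBO. EDIL3 (0.72), HPGD (0.72), which degrades prostaglandins, ST8SIA5 (0.69), a sialyltransferase, LRRK2 (0.67) and SNAI2 (0.66), the neural crest transcription factor Slug, also rose. PCBP3 (0.66), ATP1B2 (0.66), a sodium pump subunit, and ZNF713 (0.64) had the smallest rises among those named. HPGD lost the call without number 1, without number 3 and without OTX015 library 1 or COMBO library 3, and ZNF713 lost it without number 1. PXDN and EDIL3 were not past the threshold without the pairing (adjusted p = 0.11 and 0.074).

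**Figure D1:**
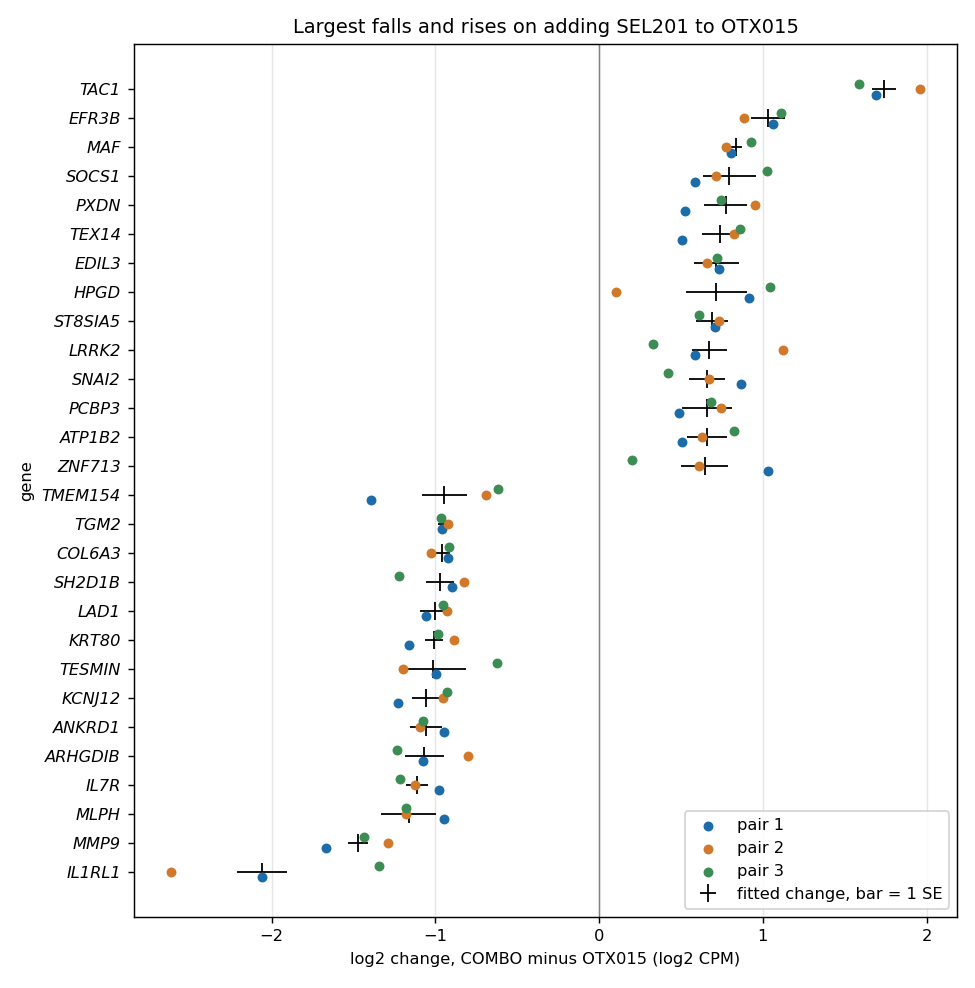
Log2 change (COMBO minus OTX015, horizontal axis) of the 14 largest rises and 14 largest falls; coloured points are the 3 pairs of libraries with the same number, and the vertical tick with its bar is the fitted change with 1 SE. All 3 pairs lie on the same side of 0 for every gene, which the choice of these genes required. The fitted changes run from IL1RL1 at -2.06 to TAC1 at 1.74, and the pairs of TGM2 nearly coincide while those of HPGD spread widely.

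**Figure D2:**
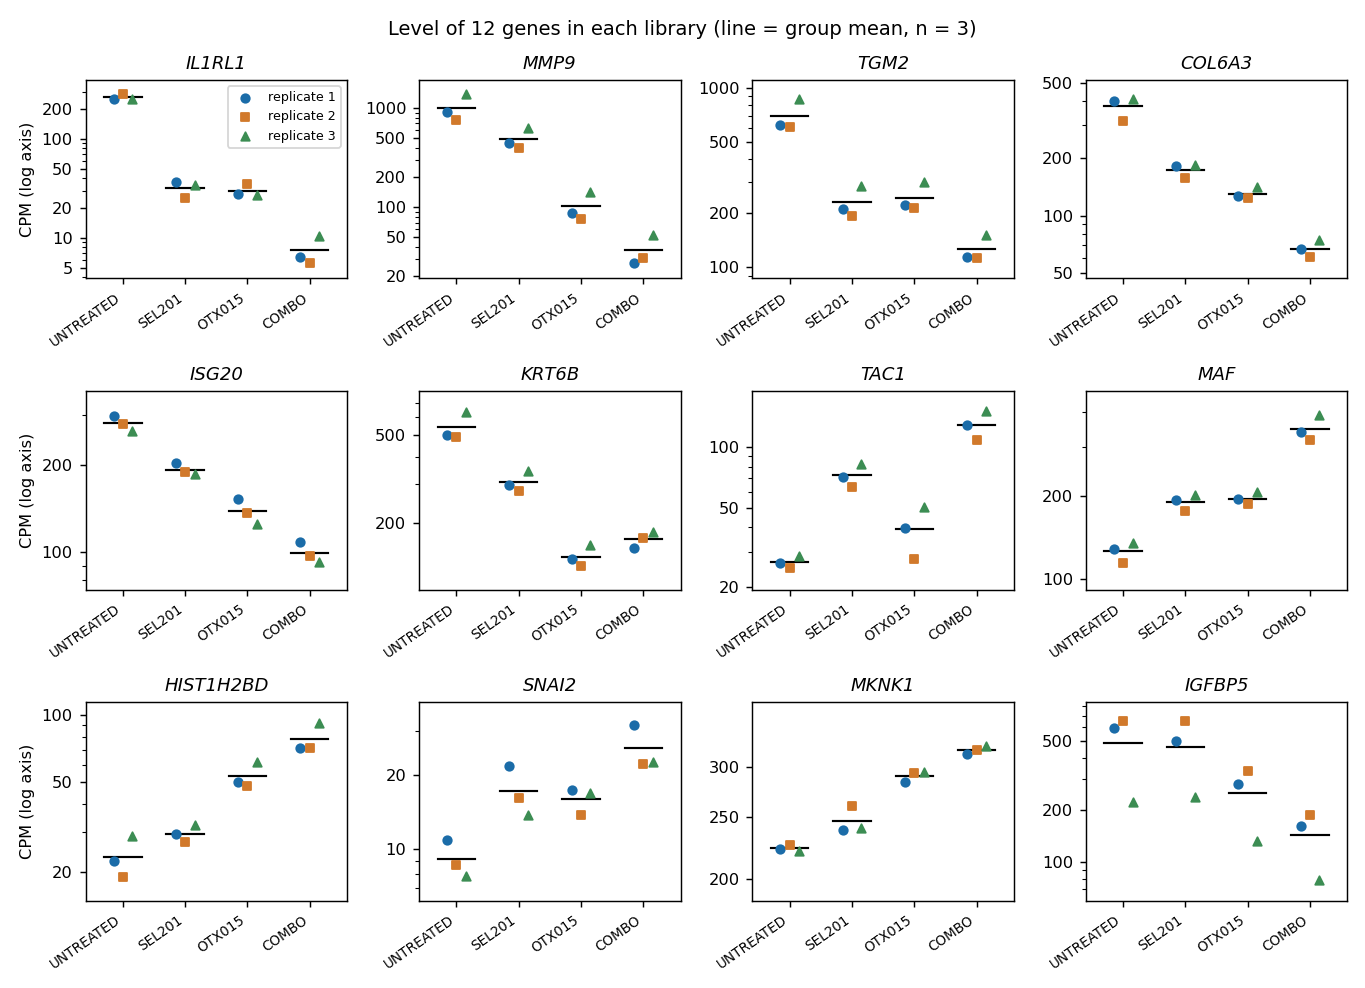
Level in CPM (log axis) of 12 genes in each of the 12 libraries, with markers for the library number and a line at the mean of each group (n = 3). IL1RL1, MMP9, TGM2 and COL6A3 are lowest in COMBO, TAC1 and MAF are highest there, and IGFBP5 is low in the number 3 library of every group.

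Of the 22 listed genes of the eIF4F complex, the MNK kinases and their substrates, 4 were measured, and 1 passed the test, against 22.2% of all genes. MKNK1, which encodes MNK1, was at 284.3, 293.4 and 294.3 CPM in OTX015 and at 314.1, 318.6 and 323.7 in COMBO. These libraries did not overlap, and the rise was 1.1-fold (log2 change 0.13, 95% interval 0.06 to 0.21, edgeR adjusted p = 0.0064; 0.062 without the pairing, and not past the threshold without number 1). EIF4A1, the helicase of the complex, had a log2 change of 0.13 with an interval of -0.01 to 0.28. EIF4ENIF1, the nuclear transporter of eIF4E, had 0.04 (-0.05 to 0.12). PLA2G4A, the cytosolic phospholipase that MNK can phosphorylate, had -0.02 (-0.13 to 0.08). Among 5 measured genes reported as sensitive to eIF4E in their translation, 3 were lower in RNA, against 12.2% over all genes. These were MMP9, SNAI1 (log2 change -0.21), a transcription factor of epithelial-mesenchymal transition, and CCNE1 (-0.15), cyclin E1. CD274, which encodes PD-L1, was at 26.02 to 28.19 CPM in OTX015 and 25.71 to 28.61 in COMBO (log2 change 0.03, adjusted p = 0.86). The libraries of SNAI1 overlapped between the groups, and its fall was not past the threshold without the pairing (adjusted p = 0.26) or without number 1; that of CCNE1 was lost without number 1.

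None of the 6 measured BET and P-TEFb genes passed the test, against 22.2% of all genes, with log2 changes from -0.04 to 0.08. LARP7, a subunit of the 7SK particle that holds P-TEFb inactive, had 0.08 (adjusted p = 0.17, and past the threshold without number 3 or COMBO library 3), and CCNT2, cyclin T2, had 0.04 (adjusted p = 0.52). Of 9 measured histone genes with polyadenylated transcripts 8 were higher, against 10.0% over all genes, and none was lower, with a median log2 change of 0.38. HIST1H2BD was at 50.18, 48.44 and 61.74 CPM in OTX015 and at 71.47, 71.2 and 91.89 in COMBO (log2 change 0.55, SE 0.07, edgeR adjusted p = 4.8e-07). HIST1H2AC rose by 0.44, HIST3H2A by 0.36 and HIST1H1C, a linker histone, by 0.30. The member that did not pass was H2AFJ (0.10). With SEL201 alone 8 of the 9 were also higher (18.0% over all genes), with a median of 0.361. Histone genes are near-identical copies, and how the counting divided reads between them is not given in the sources used here. Without the pairing 6 of the 9 were higher (2.9% over all genes).

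Of 17 measured extracellular matrix genes 12 were lower, FBN1 was higher and 4 were not called, against 12.2% lower and 10.0% higher over all genes, with a median log2 change of -0.262. COL6A3 was at 126.1, 123.4 and 141.1 CPM in OTX015 and at 66.52, 60.52 and 74.43 in COMBO (log2 change -0.96, SE 0.05, edgeR adjusted p = 6.2e-15). LOXL4, an enzyme that crosslinks collagen, fell by 0.88 on the log2 scale and COL13A1, a transmembrane collagen, fell by 0.83. FBN1, the microfibril protein fibrillin-1, rose from 316.7 to 393.9 CPM in OTX015 to 413.8 to 423.2 in COMBO (log2 change 0.27, adjusted p = 2.9e-05). Without the pairing 4 members were lower, against 4.01% of all genes, and FBN1 was still higher.

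Matrix proteases and their inhibitors split, with 6 of 14 lower and 3 higher, against 12.2% and 10.0% over all genes. Beside MMP9, ADAMTS4, an aggrecanase, fell by 0.81 on the log2 scale. MMP17, a membrane-anchored metalloprotease, went from 370.1, 326.4 and 396.1 CPM to 439.7, 436.1 and 560, a rise in which no library overlapped (log2 change 0.39, edgeR adjusted p = 1.3e-08). Of 10 measured genes of the invasive melanoma state, 5 were lower and 2 higher, beside the same shares over all genes. The lower ones included ANKRD1, and the higher ones were SNAI2 and ADAM12 (log2 change 0.22), a metalloprotease. Without the pairing 2 were lower and 2 higher (4.01% and 2.9% over all genes). DKK1, a secreted Wnt inhibitor of that list, was at 168.7, 205.3 and 302.4 CPM in OTX015 and 157.2, 195.1 and 275.1 in COMBO and did not pass the test (log2 change -0.10, adjusted p = 0.16; 0.035 when SEL201 library 2 was left out).

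Of the 11 measured members of the keratin and epithelial list 9 were lower, against 12.2% over all genes, and none was higher. Their median log2 change was -0.636. The list does not hold every measured keratin gene: KRT6B (0.27) and KRT6A (0.71), which are outside it, were higher, and neither was past the threshold without the pairing (adjusted p = 0.18 and 0.36). KRT80 was at 93.67, 97.97 and 151.5 CPM in OTX015 and at 41.79, 52.8 and 76.61 in COMBO, without overlap (log2 change -1.01, SE 0.05, edgeR adjusted p = 6.2e-15). CLDN4, a tight junction claudin, was at 151.1, 156.3 and 153.4 CPM in OTX015 and at 104.9, 104.3 and 88.92 in COMBO (log2 change -0.62, adjusted p = 1.3e-10). SFN, the 14-3-3 sigma gene, fell by 0.76 on the log2 scale and KRT14 by 0.53. KRT81 (-2.35) and KRT7 (-1.17) had the largest log2 changes of the list, but were at 1.916 to 2.998 and 1.53 to 2.643 CPM in OTX015. Without the pairing 7 of the 11 were lower (4.01% over all genes). ANKRD1 and CLDN4 are shown by their promoters, since both fell and both hold letters of the AP-1 motif TGANTCA, the binding motif of the FOS and JUN factors, which act downstream of ERK. The sequences are the 250 bases before the gene start in RefSeq on GRCh38.p14, another build than the hg19 that the submitters' processing notes name for the data, read 5′ to 3′ on the strand of the gene; capitals mark TGANTCA and, in ANKRD1, also GGAATG, the motif of the TEAD factors that YAP binds.
ANKRD1, chr10:90921088-90921337, minus strand: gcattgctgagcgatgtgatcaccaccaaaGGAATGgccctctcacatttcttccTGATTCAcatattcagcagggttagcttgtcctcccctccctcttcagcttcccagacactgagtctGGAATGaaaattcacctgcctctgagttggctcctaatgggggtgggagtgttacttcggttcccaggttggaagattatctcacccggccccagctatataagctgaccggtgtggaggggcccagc
CLDN4, chr7:73830746-73830995, plus strand: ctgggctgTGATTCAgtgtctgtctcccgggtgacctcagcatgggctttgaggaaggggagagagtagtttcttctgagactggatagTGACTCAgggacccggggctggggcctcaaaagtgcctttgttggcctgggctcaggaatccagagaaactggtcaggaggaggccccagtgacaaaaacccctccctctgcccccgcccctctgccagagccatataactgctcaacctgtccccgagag
Both strands of this window were searched for each motif, in genes with a single window in the table, which were 4049 of the measured genes. TGANTCA was found in 6.86% of all 22114 promoters of that table, in 4.12% of the measured genes, in 2.91% of 446 genes higher in COMBO and in 7.1% of 493 lower genes. GGAATG was found in 12.1% of all promoters, 9.43% of the measured genes, 8.74% of the higher genes and 59 of the 493 lower genes. These shares are descriptions of letters in the window and were not tested.

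Of 38 measured interferon-stimulated genes, 11 were lower, 2 were higher and 25 did not pass, against 12.2% lower and 10.0% higher over all genes, with a median log2 change of -0.102. IFI44, an interferon-induced protein gene, was at 68.34, 68.37 and 60.42 CPM in OTX015 and at 40.28, 44.85 and 41.75 in COMBO (log2 change -0.64, SE 0.06, edgeR adjusted p = 2.6e-09). ISG20, an exonuclease with antiviral activity, went from 152.9, 137 and 125.8 CPM to 108.5, 97.18 and 92.62 (log2 change -0.48, adjusted p = 7.9e-10). Neither gene's libraries overlapped. SAMD9, an antiviral restriction factor, fell by 0.28 on the log2 scale, while IRF7, the interferon-induced transcription factor, rose from 89.22 to 95.28 CPM to 117.7 to 132.1 (log2 change 0.42, adjusted p = 8e-07). Without the pairing 3 members were lower and 1 was higher (4.01% and 2.9% over all genes), and without number 1, 2 or 3 the lower members were 5, 6 and 8. With SEL201 alone 29 of the 38 were lower and 2 higher (19.1% and 18.0% over all genes), with a median of -0.247. Of the lower members, ISG20 and SAMD9 are shown by the same window, with the interferon-stimulated response element in capitals (GAAA, any 2 bases, GAAA), the motif bound by the ISGF3 complex and by IRF factors.
ISG20, chr15:88638766-88639015, plus strand: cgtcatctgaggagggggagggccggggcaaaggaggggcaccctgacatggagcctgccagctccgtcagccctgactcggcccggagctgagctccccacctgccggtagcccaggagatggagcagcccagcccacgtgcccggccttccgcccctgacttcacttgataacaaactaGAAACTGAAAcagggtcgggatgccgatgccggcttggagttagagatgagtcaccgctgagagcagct
SAMD9, chr7:93117980-93118229, minus strand: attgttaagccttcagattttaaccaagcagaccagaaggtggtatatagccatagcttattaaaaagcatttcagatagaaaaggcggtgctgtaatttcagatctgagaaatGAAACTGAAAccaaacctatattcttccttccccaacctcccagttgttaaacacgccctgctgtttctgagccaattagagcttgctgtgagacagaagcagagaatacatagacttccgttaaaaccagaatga
These letters were found in 14 of the 22 measured interferon-stimulated genes with a single window, in 5 of the 6 of these that were lower in COMBO, and in 3.21% of all promoters. Among all genes with a window they were in 3.25% of those lower in COMBO and in 2.47% of those measured.

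Of 11 measured NF-kB response and cytokine genes, 7 were lower and none higher (12.2% and 10.0% over all genes), with a median log2 change of -0.229. CCL2, a monocyte chemoattractant, was at 227.4, 250 and 291.4 CPM in OTX015 and at 159.7, 200.7 and 201.2 in COMBO (log2 change -0.45, edgeR adjusted p = 4.7e-09). CSF2, which encodes GM-CSF, fell by 0.61 on the log2 scale, PTGS2, cyclooxygenase-2, by 0.30 and IL11 by 0.23. Outside this list, the cytokine gene IL24 was higher (0.28, adjusted p = 0.0042; 0.78 without the pairing), as was SOCS1. Without the pairing 1 of the 7 calls remained (4.01% of all genes were then lower), and CSF2 was then at an adjusted p of 0.053.

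Of 12 interleukin-1 family and interleukin receptor genes 7 were lower and none higher (12.2% and 10.0% over all genes), with a median of -0.289. Among the lower ones were IL1RL1, IL7R, IL18R1 (log2 change -0.79), a subunit of the interleukin-18 receptor, and IL13RA1 (-0.26). Without the pairing 5 were lower (4.01% over all genes) and IL13RA1 was not (edgeR adjusted p = 0.33). In antigen presentation 5 of 10 members were lower and 1 was higher, beside the same 12.2% and 10.0% over all genes. The lower ones included TAP2 (-0.18), a peptide transporter, PSMB8 (-0.21), an immunoproteasome subunit, and CTSS (-0.18), a lysosomal protease. The higher one was HLA-DPB1 (0.18), a class II chain. TAP2 was at 238.2 to 259.4 CPM in OTX015 and 204.7 to 228 in COMBO. Of the antigen presentation calls 1, of a lower gene, remained without the pairing, where 4.01% of all genes were lower. The call of PSMB8 was lost without number 3.

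Of 15 measured neuronal and synaptic genes 8 were higher and 2 lower, against 10.0% and 12.2% over all genes, with a median log2 change of 0.204. Beside TAC1, TUBB3, neuronal tubulin, went from 97.73, 98.16 and 99.04 CPM to 126.4, 137.6 and 131.4 (log2 change 0.42, edgeR adjusted p = 3.7e-07). NCAM1, a neural adhesion molecule, rose by 0.36, but its libraries overlapped between the groups and it was not past the threshold without the pairing (adjusted p = 0.28). KIF1A, a kinesin of synaptic vesicle transport, went the other way, from 122.8, 129.6 and 130.1 CPM to 66.09, 75.31 and 80.18 (log2 change -0.79, adjusted p = 4e-14). Without the pairing 3 members were higher and 1 was lower (2.9% and 4.01% over all genes). Of 12 measured melanocyte lineage genes, shares near those over all genes (10.0% higher and 12.2% lower) were called: 2 were higher, RAB38 (0.19), a melanosome GTPase, and S100B (0.18), and 2 were lower, MLPH and GPNMB (-0.32), a melanosome glycoprotein. MITF, the master regulator of the lineage, was at 140.9 to 152.7 CPM in OTX015 and 148.7 to 157.7 in COMBO (log2 change 0.06, adjusted p = 0.37). The call of S100B was lost without number 1 or 2 and in fits that left out single libraries. Without the pairing neither S100B nor RAB38 was past the threshold (adjusted p = 0.32 and 0.2).

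Among 8 MAPK output and feedback genes, 2 rose, both immediate early transcription factor genes, and 1 fell (10.0% and 12.2% over all genes). EGR1 was at 444.9, 446.3 and 373.7 CPM in OTX015 and at 589.7, 667 and 527.5 in COMBO (log2 change 0.50, edgeR adjusted p = 2.2e-08), and FOS at 69.45, 62.17 and 69.47 against 100.6, 104.2 and 89.12 (0.55, adjusted p = 4.6e-07). FOSL2, another AP-1 factor, fell by 0.19 on the log2 scale. SPRY1, an inhibitor of the pathway, had a log2 change of -0.19 (adjusted p = 0.073, and 0.015 when COMBO library 3 was left out).

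Of 7 measured oxidative stress genes of the NRF2 programme 5 were lower and none higher (12.2% and 10.0% over all genes), with a median of -0.346. The lower ones were ABCC2 (log2 change -0.48), an export pump, HMOX1 (-0.25), heme oxygenase 1, AKR1C2 (-0.44), AKR1C3 (-0.35) and AKR1C1 (-0.52). The AKR1C genes are close paralogs that can share reads, and 2 of the 5 calls remained without the pairing, where 4.01% of all genes were lower. Of 14 p53 target genes 5 rose and 1 fell, against 10.0% and 12.2% over all genes. Those that rose included TP53INP1 (0.46), SESN2 (0.18) and PPM1D (0.13). GDF15, a stress-induced cytokine, fell from 18.29 to 20.38 CPM to 8.692 to 14.03 (log2 change -0.93, edgeR adjusted p = 1.3e-07). In the TGF-beta and BMP list 5 of 19 were lower and 2 higher, against 12.2% and 10.0% over all genes. The lower genes included SMAD6 (-0.62), an inhibitory SMAD, and FST (-0.59) and FSTL3 (-0.34), which bind activins. Without the pairing 2 of the p53 targets were higher, and in the TGF-beta list 4 were lower and none was higher. Over all genes 2.9% were then higher and 4.01% lower.

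CDKN1C, the CDK inhibitor p57, fell by 0.61 on the log2 scale, and E2F2 by 0.17, while CDKN2D, the CDK inhibitor p19, rose by 0.13. E2F2 and CDKN2D each lost the call without the pairing (adjusted p = 0.13 and 0.29) and in several fits that left out libraries. Of 6 measured DNA replication and G1/S genes 2 were lower, CCNE1 and E2F2, against 12.2% over all genes. None of 3 mitotic genes and 6 respiratory chain genes passed, against 22.2% of all genes. Apoptosis regulators had 1 of 19 higher, BCL2L11 (0.16), the BH3-only protein BIM, and 1 lower, CASP8 (-0.10), against 10.0% and 12.2% over all genes. Neither was past the threshold without the pairing (edgeR adjusted p = 0.056 and 0.15), and each was lost in fits that left out libraries. Cholesterol genes had 3 of 13 lower, led by STARD4 (-0.50), a sterol carrier, against 12.2% over all genes, and none without the pairing. Few members were measured of the ATF4, chaperone, fatty acid and ribosome biogenesis lists. Their calls stand beside 10.0% higher and 12.2% lower over all genes. Of 8 ATF4 target genes SESN2 was higher and ALDH1L2 and PCK2, both mitochondrial enzymes, were lower, of 3 endoplasmic reticulum chaperone genes CRELD2 was lower, and of 3 fatty acid synthesis genes PNPLA3 (-0.45) and FADS2 (-0.19) were lower. Of these, SESN2 and PNPLA3 were past the threshold without the pairing. The only measured ribosome biogenesis gene, POLR1C, was not called (log2 change -0.02).

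The lists of lysosome and autophagy genes (2 of 17 higher, 2 lower), hypoxia genes (1 and 2 of 10), and growth factors and receptor tyrosine kinases (2 and 4 of 20) stood beside 10.0% higher and 12.2% lower over all genes. Without the pairing, 1 lysosome gene and 1 growth factor gene were lower, and no member of the 3 lists was higher. In the last list, VEGFC (-0.42) and NRG1 (-0.50) were lower, and HBEGF (0.17) was higher, the first a lymphatic growth factor and the other two ligands of ERBB receptors. KDR (0.41), a receptor of VEGF counted among the endothelial markers, was higher, and PDGFRB (-0.28) and LUM (-0.37), counted among the stromal markers, were lower; none of the 3 was past the threshold without the pairing (adjusted p = 0.39, 0.1 and 0.18).

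**Figure D3:**
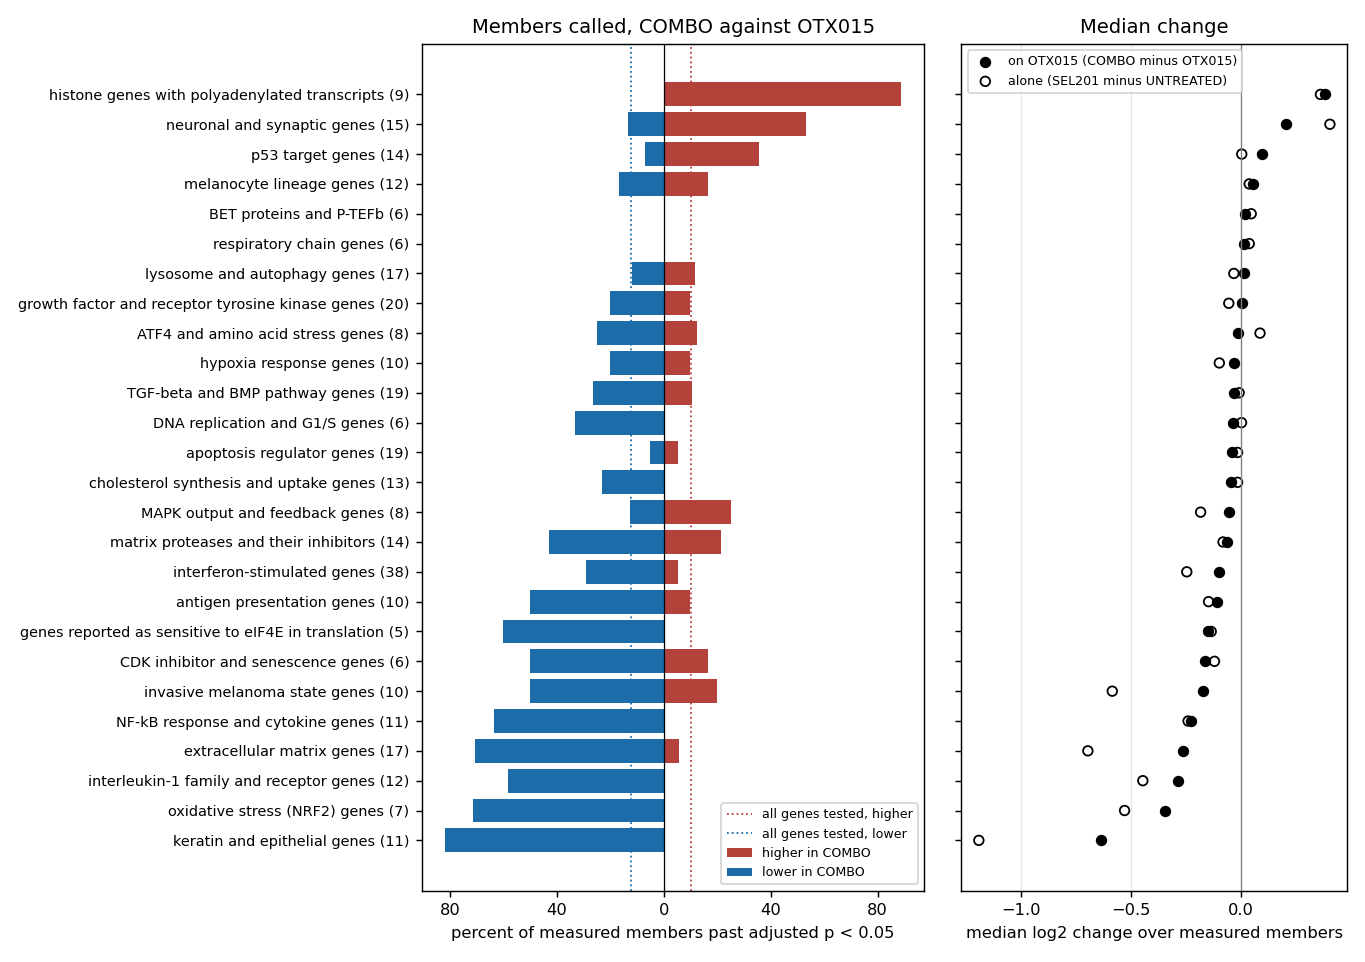
Left, the percent of the measured members of each list (number in brackets, lists with 5 or more) that were higher (right of 0) or lower (left of 0) in COMBO than in OTX015 at an adjusted p under 0.05, with dotted lines at the 10.0% and 12.2% of all genes tested; right, the median log2 change of the same members on OTX015 (filled) and with SEL201 alone (open). Histone genes lie farthest to the right and keratin and epithelial genes, whose list leaves out KRT6A and KRT6B, farthest to the left. The medians of the matrix, invasive and keratin lists are nearer to 0 on OTX015 than alone.

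The same agent without OTX015 was compared in libraries of its own but within the same fit, SEL201 against UNTREATED. There 1541 genes were higher (18.0%) and 1639 lower (19.1%), together 37.1% of those tested. Both called sets shared 623 higher genes, which are 72.4% of those higher on OTX015 and 40.4% of those higher alone, and 767 lower genes, which are 73.3% and 46.8%. Opposite calls were 19 genes higher on OTX015 and lower alone, and 13 lower on OTX015 and higher alone. Across the 8579 genes, which are not independent replicates, the 2 changes had a Pearson r of 0.689. At least 1.5-fold, SEL201 alone moved 102 genes up and 347 down, against 30 and 140 on OTX015. The 109 genes at least 2-fold lower alone had a median of -1.228 there, which chose them, and -0.591 on OTX015, where 79 were called lower and 2 higher. Read the other way, the 140 genes at least 1.5-fold lower on OTX015 had a median of -0.752 there and -0.861 alone, where 129 were called lower.

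Whether SEL201 moved a gene by a different amount with and without OTX015 was tested as the interaction, the log2 change on OTX015 minus that alone. It was above 0 in 345 genes (4.02%) and below 0 in 234 (2.73%), together 6.75%, but without the pairing in 18 (0.21%) and 6 (0.0699%), and without all libraries of number 2 in 221 and 101. Of the 345 genes, 319 were lower with SEL201 alone, against 19.1% of all genes, and 172 of these were not called on OTX015. Of the 234 genes, 181 were higher alone, against 18.0% of all genes, and 107 of these were not called on OTX015. The change alone is subtracted in the interaction, so these counts follow in part from how the genes were chosen. TGM2 belonged to the first set: SEL201 alone lowered it by 1.60 on the log2 scale, and the difference between both changes was 0.65 (edgeR adjusted p = 3e-10; 0.4 without the pairing).

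KRT6B, a keratin of stressed epithelium, fell by 0.81 on the log2 scale with SEL201 alone and rose by 0.27 on OTX015. Its levels on OTX015 were 138.2, 128.4 and 159.3 CPM, and in COMBO 155.4, 171.8 and 183.7, so that the groups overlapped while each pair rose (adjusted p = 4.3e-05, and 0.18 without the pairing); the interaction was 1.08 (edgeR adjusted p = 3e-13). DKK1 had -1.15 alone, and the interaction was 1.04 (adjusted p = 4.1e-11). The cadherin genes PCDH9 and CDH19 had -0.76 and -1.05 alone, 0.10 and -0.27 on OTX015, and interactions of 0.86 and 0.78.

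Below 0, TBX2, a T-box repressor of the melanocyte lineage and of senescence genes, was at 560.9, 477.3 and 527.9 CPM in OTX015 and at 620.1, 563.5 and 659.4 in COMBO. Its rise was 0.24 on OTX015 (adjusted p = 0.08 without the pairing) and 0.97 alone, an interaction of -0.73 (edgeR adjusted p = 5.8e-09). MEGF10, an engulfment receptor, had 1.05 alone and 0.03 on OTX015, with a level of 78.01 to 111.5 CPM in OTX015 and 75.69 to 128.6 in COMBO. TBX10, SIRPB1, a receptor of myeloid cells, and the secreted protease HTRA1 had interactions of -0.62, -0.60 and -0.48 and larger rises alone (0.97, 0.63 and 0.89) than on OTX015 (0.35, 0.03 and 0.41).

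IGFBP5, which binds insulin-like growth factors, differed in another way: its log2 change was -0.06 alone (edgeR adjusted p = 0.34) and -0.81 on OTX015 (adjusted p = 3.2e-13), an interaction of -0.75. It was at 283.9, 336.5 and 133.4 CPM in OTX015 and at 162.6, 187.6 and 78.6 in COMBO. The groups overlapped because both number 3 libraries were low, every pair fell, and without the pairing the change was not past the threshold (adjusted p = 0.33). Of the 11 genes given here for their interaction, 3 were past the threshold without the pairing: KRT6B, PCDH9 and TBX2. IL1RL1 fell by 3.04 on the log2 scale alone and fell by 2.06 on OTX015 (interaction 0.98, adjusted p = 0.0012). MMP9 fell by 1.03 alone and fell by 1.47 on OTX015 (interaction -0.45, adjusted p = 0.00016).

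**Figure D4:**
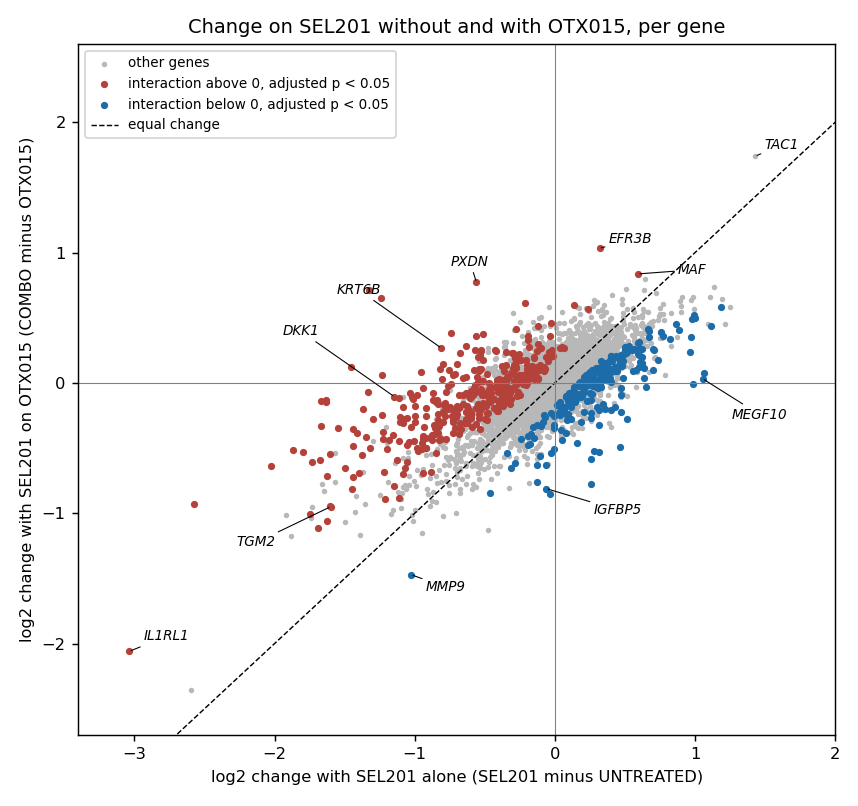
Log2 change of each of the 8579 genes with SEL201 alone (horizontal axis) and with SEL201 on OTX015 (vertical axis), with red and blue points for interactions above and below 0 at an adjusted p under 0.05 and a dashed line of equal change. Red points lie above the line and blue points below it by definition. Most red points lie left of 0, such as DKK1 and TGM2, MMP9 lies below the line, and TAC1 lies high in both.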

How the data were processed

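The authors deposited raw counts per gene, in a table with 1 column per library. Reads were 150-base pairs from stranded poly(A) libraries, per the labels' protocols. Among the tools in the submitters' processing notes are the aligner STAR 2.5.4b and the counter featureCounts, with the build hg19. Neither annotation nor strand setting is given in the sources used here.

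The counts were fitted with edgeR 4.0.16 in R 4.3.3 (TMM, filterByExpr, which removed no gene, glmQLFit, glmQLFTest) over all 12 libraries, with group means and the library number as a block, so that 6 residual degrees of freedom were shared. Adjusted p-values are Benjamini-Hochberg over 8579 genes, with a threshold of 0.05. SE was taken as the absolute log2 change over the square root of F. Pair values are log2 of CPM plus 0.25.

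The comparison was defined with libraries paired by number, while the labels name no shared culture or day. Deviations from group means correlated across genes at 0.265 to 0.577 in 18 same-number pairs and at -0.465 to 0.195 in 36 others. Such deviations balance out within a group, so positive values for the same number push those for other numbers down. The biological coefficient of variation was 4.35% with the block and 7.92% without it. Within groups, no pair of libraries looked like 1 library counted again. The fit was first run on simulated data with a shift tied to the library number and the same spread in every gene. Because that run assumed the pairing, it cannot show whether the pairing holds in these data.

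Named genes are the 14 largest rises and falls past the threshold, with at least 5 CPM in a group, no overlap between the groups and 3 pairs in the same direction, skipping clone-based, antisense and unnamed symbols; 6 interaction genes per direction with the lowest p; TGM2 and the measured MNK and eIF4F genes; and up to 4 members per list. A few genes that these rules name are not reported here. The comparison, the 34 lists and these rules were chosen with earlier results of these data known. Promoters come from RefSeq. Alternatives were a fit without the block, RLE scaling, DESeq2 1.42.0 with the block, no filter or a 5 CPM filter, only the compared groups, and each library or number left out.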

Additional observations from a re-analysis of the deposited data

Results flagged for a closer look

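The change on adding SEL201 differed with and without OTX015, by the edgeR interaction at an adjusted p under 0.05, in 47 of the genes that the naming rules gave, 33 above 0 and 14 below 0. Genes described outside those rules are not among the 47. All values are log2 differences between both changes. Only TBX2, FSTL3, PCDH9, KRT6B and FST, 5 of the 47, were past the threshold without the pairing by number.

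Above 0, the SEL201 change on OTX015 was less negative or more positive than alone. Of epithelial genes these were KRT6B (1.08), KRT80 (0.74) and KRT14 (0.45). Of matrix genes and proteases they were PXDN (1.33), ADAMTS4 (0.64), LOXL4 (0.23) and FBN1 (0.20). Of secreted factors and receptors they were FST (1.08), DKK1 (1.04), IL1RL1 (0.98), KDR (0.69), IL7R (0.58), FSTL3 (0.50), VEGFC (0.50) and NRG1 (0.48). TGM2 (0.65), PTGS2 (0.50), AKR1C2 (0.56), AKR1C3 (0.51), FADS2 (0.22) and STARD4 (0.42), a sterol carrier, encode enzymes and a lipid carrier. Genes of adhesion, membrane and transport were PCDH9 (0.86), CDH19 (0.78), EFR3B (0.71), TMEM154 (0.66), KIF1A (0.36) and GPNMB (0.25). ANKRD1 (0.57), TP53INP1 (0.49), MITF (0.30), FOSL2 (0.24), MAF (0.24) and SAMD9 (0.22) act in transcription, stress or antiviral responses. FST fell by 1.67 on the log2 scale with SEL201 alone and fell by 0.59 on OTX015, and STARD4 fell by 0.92 and fell by 0.50. KDR changed sign, with -0.28 alone and 0.41 on OTX015. The interaction of PXDN is larger than its rise on OTX015 (0.77), so its log2 change alone was below 0.

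Below 0 were MEGF10 (-1.02), IGFBP5 (-0.75), TBX2 (-0.73), TBX10 (-0.62), SIRPB1 (-0.60), EGR1 (-0.50), SPRY1 (-0.48), HTRA1 (-0.48), MMP9 (-0.45), MMP17 (-0.37) and CDKN1C (-0.32). The metabolic enzyme genes PCK2 (-0.25), ACSS2 (-0.25) and ALDH1L2 (-0.21) also lay below 0. EGR1 rose by 1.0 with SEL201 alone and by 0.50 on OTX015, and SPRY1 rose by 0.30 alone and had -0.19 on OTX015.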

How the results depend on the processing

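Without the replicate block, that is without the pairing by number, COMBO against OTX015 gave 249 genes higher and 344 lower, SEL201 against UNTREATED 867 and 953, and the interaction 18 above 0 and 6 below 0. All 593 genes called in COMBO against OTX015 without the block were also called with it. Of the 161 values of named genes, 55 lost the call without it. The 161 include values that were not called in the main fit and so had no call to lose, such as the changes of CD274 and MEGF10 on OTX015. No named value past the threshold changed sign under any alternative run, while several close to 0, such as CD274 and MEGF10, did. Fits that left out 1 library or 1 number gave 521 to 882 genes higher and 661 to 1062 lower in COMBO, 1093 to 1625 higher and 1264 to 1710 lower with SEL201 alone, and 210 to 318 interactions above 0 and 101 to 274 below 0; fewer libraries entered each. The counts moved by over 1.5 times without number 1 (521 and 661 in COMBO, 210 and 116 in the interaction), without number 2 (221 and 101 in the interaction), without number 3 (218 interactions above 0), without OTX015 library 3 (572 higher in COMBO) and without SEL201 library 2, COMBO library 1 or COMBO library 2 (154, 147 and 145 interactions below 0). RLE size factors gave 883 higher and 1027 lower genes in COMBO, DESeq2 with the block 852 and 1003, a mean of at least 5 CPM 859 and 1046, and a fit of the 6 compared libraries 863 and 960. The share of higher genes among the calls stayed between 41.5% and 47.3%, against 45.1%. Genes outside the measured range of counts, and changes shared by most genes, were beyond reach here.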

Other observations

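The genes below were chosen after their values were seen. KRT6A, a neighbour and close paralog of KRT6B that can share its reads, and SERPINB2, the plasminogen activator inhibitor PAI-2, went opposite ways with and without OTX015. KRT6A was at 3.008, 1.961 and 6.657 CPM in OTX015 and at 4.394, 5.271 and 8.931 in COMBO, and SERPINB2 at 9.551, 7.754 and 27.44 against 15.51, 13.08 and 41.81. In both genes each pair rose while the groups overlapped, with the number 3 library the highest. SEL201 alone changed KRT6A by -1.33 and SERPINB2 by -1.24 on the log2 scale, and on OTX015 the changes were 0.71 and 0.65 (edgeR adjusted p = 0.016 and 0.00053; 0.36 and 0.52 without the pairing). IL24, a cytokine of the interleukin-10 family, had -0.63 alone and 0.28 on OTX015, and SLIT2, an axon guidance ligand, -0.52 and 0.18; on OTX015 neither was past the threshold without the pairing (adjusted p = 0.78 and 0.62). COL2A1, a fibrillar collagen, went the other way, with 0.32 alone and -0.53 on OTX015. Without the pairing the interactions of KRT6A, SERPINB2, IL24 and SLIT2 were not past the threshold (adjusted p = 0.15, 0.38, 0.74 and 0.34), and that of COL2A1 was (0.048).

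CLK1 and CLK4, kinases of splicing factors, rose alike on OTX015. CLK1 was at 195.8, 228.3 and 241.6 CPM in OTX015 and at 292.4, 314.2 and 291.5 in COMBO (log2 change 0.44, edgeR adjusted p = 6.5e-09; 0.0038 without the pairing). CLK4 was at 98.94, 111.7 and 117 CPM and at 139.1, 153.1 and 147.2 (log2 change 0.43, adjusted p = 1.1e-07). With SEL201 alone the changes were 0.36 and 0.39. The HOXB cluster of developmental transcription factors had 6 of 9 measured genes lower and none higher, against 12.2% lower over all genes, with a median log2 change of -0.237. HOXB8 was at 15.36, 16.79 and 10.93 CPM in OTX015 and at 9.22, 8.137 and 6.947 in COMBO (log2 change -0.82), and HOXB9 at 51.98, 57.42 and 43.25 against 32.36, 33.89 and 32.09 (-0.64). Of the 9 genes, 4 were lower without the pairing (4.01% over all genes), and 7 were lower with SEL201 alone (19.1% over all genes).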
